A study of Mus musculus with 4 samples.

Results

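NRF2, the protein of Nfe2l2, is a transcription factor that KEAP1 holds in the cytosol and marks for breakdown, and that enters the nucleus when oxidants or electrophiles modify KEAP1. It then binds antioxidant response elements (AREs) with small MAF proteins and raises the genes for glutathione synthesis, the thioredoxin system, heme breakdown, iron storage and detoxification. Mitochondria keep their own superoxide dismutase, peroxiredoxin, thioredoxin and thioredoxin reductase, which handle the superoxide and peroxide that leave the respiratory chain. The list examined here held 36 genes of this defence, named by symbol, of 24441 gene symbols in the deposited tables. All 36 were present, each at 1 locus, and 34 had a mean of at least 1 FPKM (fragments counted per kilobase of gene model and normalized for library size) over the 4 libraries and were tested. Gsta4 and Gpx3 lay below that level.

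RNA was sequenced from Langerhans cells, which take up and present antigen in the epidermis, after sorting from epidermal suspensions of mice aged 4 weeks. The Tfam cKO group was CD11cCreTfamfl/fl, in which Cre driven from the CD11c gene targets both floxed alleles of Tfam, the mitochondrial transcription and DNA-packaging factor. CD11c is also made by other dendritic cells and some macrophages, so deletion need not be limited to Langerhans cells. The other group was labelled WT, and the labels do not say whether those mice carried Cre or floxed alleles. Each group had 2 libraries, numbered 1 and 2. The labels do not say which animals, or how many, each library came from, so a p-value speaks only of the spread among these 4 libraries.

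Tfam itself stood at 1.65 FPKM in Tfam cKO 1 and 1.53 in Tfam cKO 2, against 3.17 in WT 1 and 1.61 in WT 2 (log2 fold change −0.35, limma adjusted p = 0.90). The transcript therefore did not separate the groups, and a value for the whole gene can hold reads from outside the deleted part. Groups are named below by their labels. Langerhans cell genes were abundant in every library, with Cd207 (langerin) between 1374 and 2098 FPKM. Keratinocyte markers were abundant too. The 16 found summed to 16353 and 15411 FPKM in Tfam cKO 1 and 2, against 16529 and 11574 FPKM in WT 1 and 2. Of 11 macrophage markers, Cd163, Folr2 and Fcgr1 were listed at 0 in all 4 libraries, but the 11 summed to between 171 and 296 FPKM. Summed T cell markers stood at 214 and 315 FPKM in Tfam cKO 1 and 2, against 306 and 336 FPKM in WT 1 and 2. The 10 Langerhans cell markers summed to 29101 and 22835 FPKM in Tfam cKO, against 24847 and 25211 FPKM in WT. In bulk RNA, fewer cells of a type and less RNA per cell cannot be told apart. Ddx3y, a Y-linked gene, was listed at 0 in both libraries numbered 1, against 9.34 FPKM in Tfam cKO 2 and 28.2 FPKM in WT 2. Xist, which marks female cells, stood at 39.0 and 45.6 FPKM in Tfam cKO 1 and 2, against 64.6 and 5.38 FPKM in WT 1 and 2. Both libraries numbered 2 thus held male RNA, but in different proportion, so libraries of one number were not matched for sex. For the leading genes the difference between genotypes is also given for each library number, as a description.

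The ARE core was searched as TGACNNNGC on both strands, from 250 bases before to 50 bases after the annotated starts of the RefSeq genes (GRCm38.p6). Of the 36 members, 31 had an entry and 8 of these, 25.8%, held the core, against 14.0% of all 27025 symbols with an entry. The 8 windows are shown because each holds a match to the letters that NRF2 is known to bind, with the core in capitals and 10 bases on each side, read in the direction of the gene.
Nfe2l2 (chr2:75704885-75704913, minus strand): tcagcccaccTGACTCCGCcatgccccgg
Srxn1 (chr2:152105542-152105570, plus strand): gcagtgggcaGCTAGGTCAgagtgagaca
Gclm (chr3:122245413-122245441, plus strand): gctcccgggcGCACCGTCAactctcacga
Prdx1 (chr4:116685456-116685484, plus strand): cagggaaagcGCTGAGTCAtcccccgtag
Mgst1 (chr6:138140461-138140489, plus strand): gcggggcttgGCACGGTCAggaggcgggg
Mt2 (chr8:94172529-94172557, plus strand): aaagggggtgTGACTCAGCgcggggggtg
Txnrd1 (chr10:82859104-82859132, plus strand): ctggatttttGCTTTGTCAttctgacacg
Sod1 (chr16:90220696-90220724, plus strand): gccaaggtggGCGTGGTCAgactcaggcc
The Srxn1 core began 29 bases into the annotated transcript, and the other 7 lay between 56 and 240 bases before the start. A match is a description of letters, and its absence elsewhere says nothing of enhancers farther away.

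None of the 34 tested members passed the threshold of 0.05 in limma with Benjamini-Hochberg adjustment over all 10910 tested genes, in either direction. At that threshold 0.0183% of tested genes were called higher and 0% lower in Tfam cKO. The adjusted p of the members ranged from 0.646 to 0.999. At an unadjusted p below 0.05, 1 member was higher, the glutathione transferase gene Gsto1, and 0 were lower, beside 5.01% of all tested genes higher and 1.19% lower. The 95% interval of a member's log2 fold change reached between 0.36 and 0.82 on each side of its estimate, with a median of 0.42. Changes smaller than that could not be told from no change with 2 libraries per group. The intervals are not adjusted for the 10910 tests, so larger changes could also miss the threshold. Gsto1 did so, with a log2 fold change of 0.70 and a limma adjusted p of 0.646.

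The groups were separate, with the lower Tfam cKO library above the higher WT library, for 16 of the 34 members, 47.1%, and for 25.4% of all tested genes. They were separate the other way for 1 member, beside 9.75% of all tested genes. The estimate was positive for 32 of the 34 members and for 65.2% of all tested genes, with a median log2 fold change of 0.12 in the members and 0.07 in all genes. The scale of the tables differed too, with a total FPKM of 395707 and 375823 in Tfam cKO 1 and 2, against 369761 and 338783 in WT 1 and 2. After rescaling every library to the same total, the median of all genes moved by −0.11 to −0.04 and that of the members to 0.02. The estimate was then positive for 18 members and 43.2% of all tested genes, and after quantile normalization for 21 members and 48.2% of all tested genes. After rescaling, 11 members were separate higher and 3 lower in Tfam cKO, beside 14.3% and 19.8% of all tested genes. Of the 34 members, 22, 64.7%, were lowest in WT 2, as were 46.0% of all tested genes. WT 2 had the lowest total FPKM, the lowest keratinocyte sum and the highest Ddx3y of the libraries. The part of keratinocyte RNA or sex in the members' order was not tested.

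**Figure D1:**
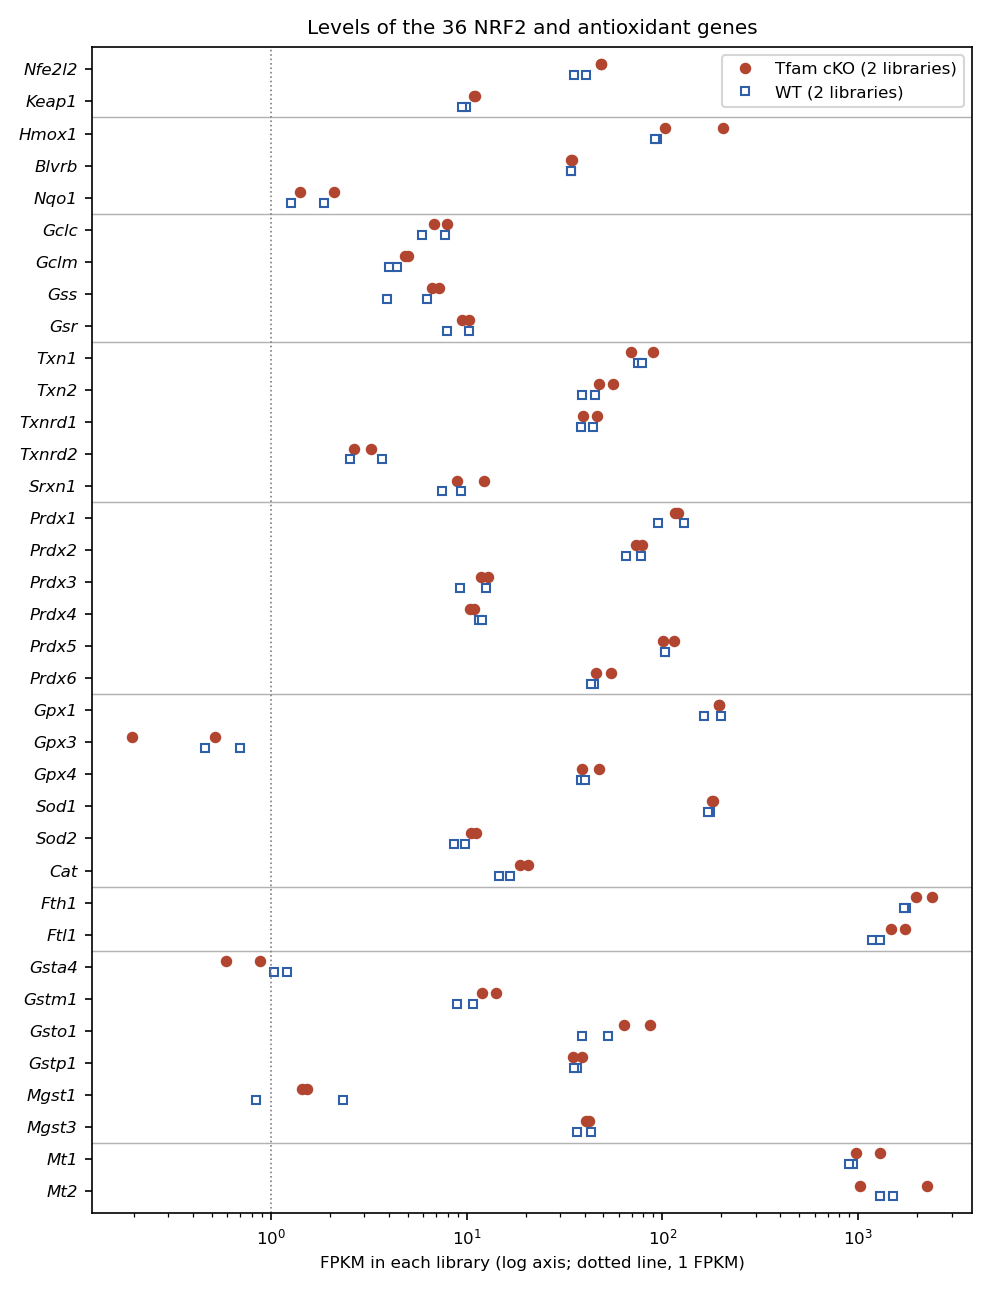
FPKM of the 36 genes in each library on a log axis, grouped by role, with filled circles for the 2 Tfam cKO libraries and open squares for the 2 WT libraries. Fth1, Ftl1, Mt1 and Mt2 lie near or above 900 FPKM in every library, while Gpx3 lies below the dotted line at 1 FPKM.

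**Figure D2:**
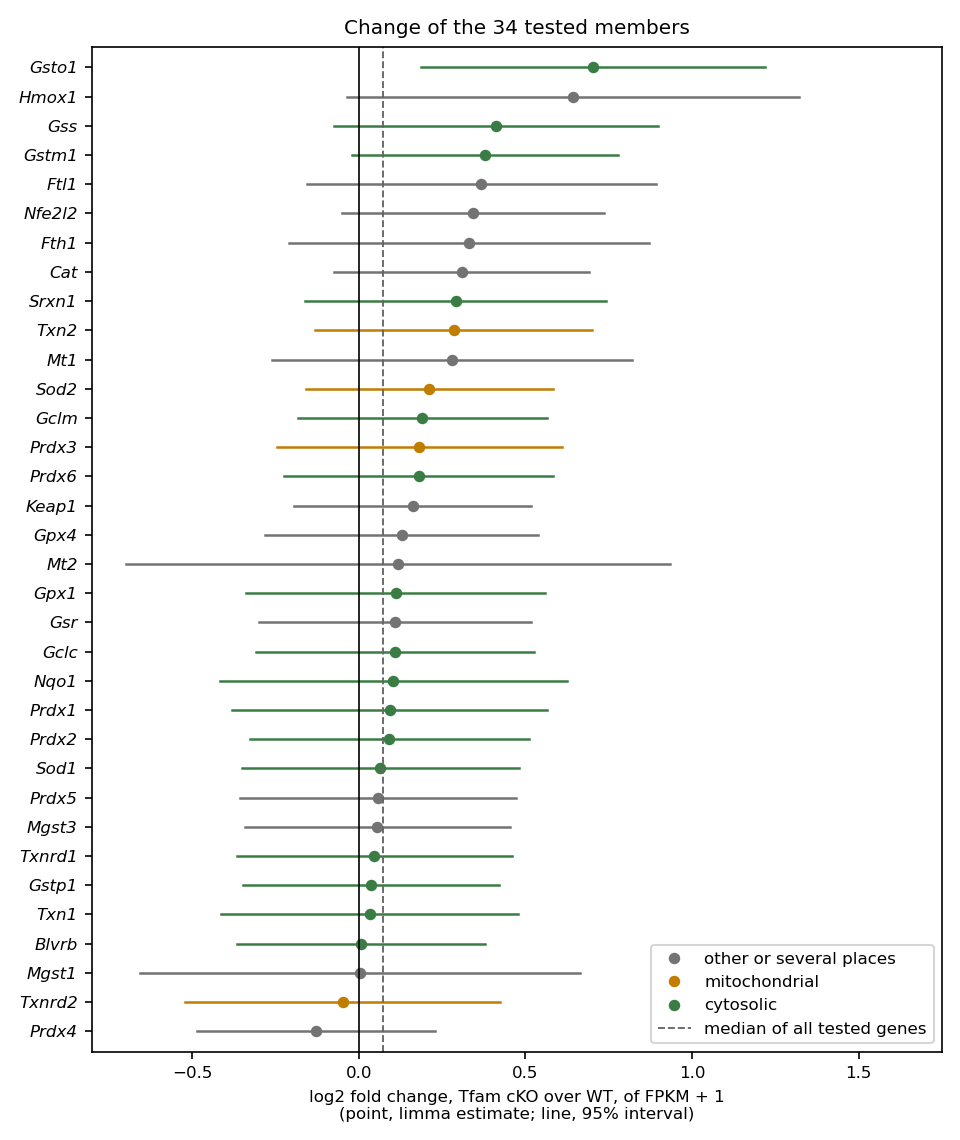
Log2 fold change of FPKM + 1, Tfam cKO over WT, for the 34 tested members with its 95% interval, colored by the place of the enzyme in the cell. The interval of Gsto1, from 0.19 to 1.22, is the only one that does not reach 0, and its adjusted p was 0.646.

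Both regulators had separate groups. Nfe2l2 stood at 48.4 and 48.6 FPKM in Tfam cKO 1 and 2, against 40.7 and 35.5 FPKM in WT 1 and 2 (log2 fold change 0.34, SE 0.17, limma adjusted p = 0.851). The Tfam cKO libraries were nearly equal, and the smaller distance to WT was to WT 1. Keap1, which encodes the inhibitor and oxidant sensor, stood at 11.0 and 10.9 FPKM in Tfam cKO, against 9.87 and 9.47 FPKM in WT (log2 fold change 0.16, limma adjusted p = 0.929). Its groups did not overlap as deposited and overlapped after rescaling to equal totals, whereas those of Nfe2l2 stayed apart. NRF2 is known to be controlled mainly through the stability of the protein, which these tables do not measure.

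Hmox1, the inducible heme oxygenase that opens the heme ring and frees iron and biliverdin, was set by 1 library. It stood at 203 FPKM in Tfam cKO 1 and 103 in Tfam cKO 2, against 93.7 in WT 1 and 91.3 in WT 2. Cufflinks' 95% intervals were 196 to 211 FPKM in Tfam cKO 1 and 99.4 to 107 FPKM in Tfam cKO 2, so the 2 Tfam cKO libraries differed by far more than counting error. The log2 fold change was 0.64 (SE 0.30, limma adjusted p = 0.83), 1.11 between the libraries numbered 1 and 0.18 between those numbered 2. Without Tfam cKO 1 it was 0.16, and without Tfam cKO 2 it was 1.13. The 11 macrophage markers summed to 296 and 221 FPKM in Tfam cKO 1 and 2, against 175 and 171 FPKM in WT 1 and 2. Of these 11, 6 averaged below 1 FPKM and were not tested, so the shares that follow rest on few genes. Of the 5 tested, 4 were separate higher, 80%, as deposited and after rescaling, beside 25.4% and 14.3% of all tested genes. Their median log2 fold change was 1.42, and their lowest limma adjusted p was 0.115. C1qa, a complement gene of macrophages and itself among those 5, was highest in Tfam cKO 1, at 88.5 FPKM. It stood at 55.2 FPKM in Tfam cKO 2, against 22.1 in WT 1 and 29.3 in WT 2. Genes of tissue dissociation and early stress also summed highest in Tfam cKO 1, at 30258 FPKM. Their sum was 20688 FPKM in Tfam cKO 2, 23168 in WT 1 and 22555 in WT 2. Their part in the Hmox1 value was not tested.

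The other enzymes of heme and quinone handling had estimates near 0. Blvrb, a biliverdin reductase, stood at 34.4 and 34.3 FPKM in Tfam cKO, against 34.1 and 34.3 FPKM in WT, so the groups were apart by less than counting error. Nqo1, the quinone reductase used widely as a readout of NRF2, was low, at 2.11 and 1.42 FPKM in Tfam cKO, against 1.86 and 1.27 FPKM in WT (log2 fold change 0.10, 95% interval −0.42 to 0.62). Its order followed the library number, with both libraries numbered 1 above both numbered 2. Its intervals correspond to between 31 and 39 fragments per library, among the fewest of the tested members.

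Glutathione synthesis and reduction showed small positive estimates in all 4 members as deposited, of which those of Gclc and Gsr were just below 0 after rescaling to equal totals. Gclc, the catalytic subunit of glutamate-cysteine ligase, stood at 6.84 and 7.92 FPKM in Tfam cKO, against 5.90 and 7.73 FPKM in WT, and its groups overlapped. Gclm, the modifier subunit of that enzyme, stood at 5.01 and 4.84 FPKM in Tfam cKO, against 4.39 and 4.00 FPKM in WT (log2 fold change 0.19, limma adjusted p = 0.923). Gss, the glutathione synthetase that completes the tripeptide, stood at 7.27 and 6.67 FPKM in Tfam cKO, against 6.30 and 3.91 FPKM in WT (log2 fold change 0.41, SE 0.21, limma adjusted p = 0.852). The Gss estimate rested on WT 2, and without that library it was 0.13, against 0.70 without WT 1. Gsr, the glutathione reductase that returns the oxidized form, overlapped between the groups, at 10.3 and 9.44 FPKM in Tfam cKO and 10.3 and 7.93 FPKM in WT.

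Glutathione transferases, which couple glutathione to electrophiles, held the member furthest from 0. Gsto1, an omega-class transferase with thioltransferase and dehydroascorbate reductase activity, stood at 86.6 and 63.7 FPKM in Tfam cKO 1 and 2, against 52.6 and 38.9 FPKM in WT 1 and 2. Every Tfam cKO value was above every WT value, and Cufflinks' interval of Tfam cKO 2, 60.1 to 67.3 FPKM, lay above that of WT 1, 48.5 to 56.8 FPKM. Tfam cKO averaged 75.2 ± 16.2 FPKM and WT 45.8 ± 9.72 FPKM (SD, n = 2 each). The log2 fold change was 0.70 (SE 0.22, limma adjusted p = 0.646), and it ranged from 0.48 to 0.92 with 1 library left out. By library number the difference was 0.71 for number 1 and 0.70 for number 2. The numbers are not known to pair the libraries, so that likeness is a description only. Gstm1, a mu-class transferase of a family with near-identical copies whose reads may be shared, stood at 12.02 and 14.1 FPKM in Tfam cKO, against 10.7 and 8.94 FPKM in WT (log2 fold change 0.38, SE 0.17, limma adjusted p = 0.829).

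None of the remaining transferases had separate groups higher in Tfam cKO. Gstp1, of the pi class, stood at 38.9 and 34.8 FPKM in Tfam cKO and 36.5 and 35.2 FPKM in WT, and Gstp2 is a close copy that may share its reads. The microsomal genes Mgst1 and Mgst3 had log2 fold changes of 0.0028 and 0.055 with overlapping groups, and Mgst1 ranged from 0.846 FPKM in WT 2 to 2.35 FPKM in WT 1. Gsta4, which handles products of lipid peroxidation, was below the level for testing, at 0.592 and 0.885 FPKM in Tfam cKO and 1.04 and 1.204 FPKM in WT, with separate groups lower in Tfam cKO. Those values correspond to 5 and 13 fragments in Tfam cKO and 10 and 16 in WT.

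**Figure D3:**
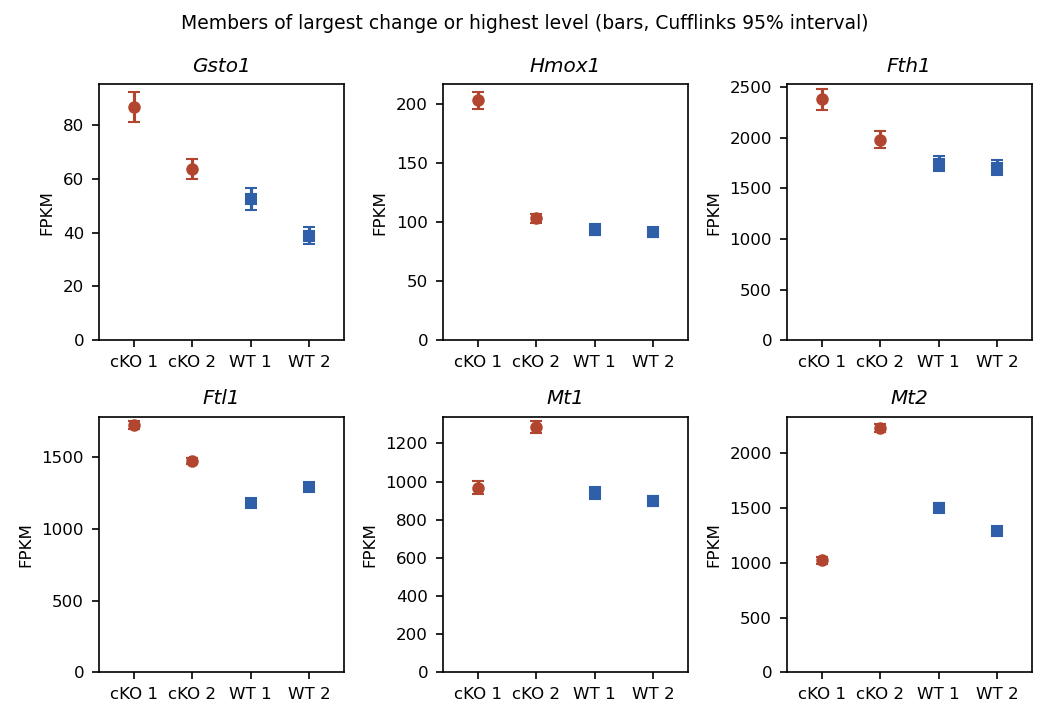
FPKM in each library of Gsto1, Hmox1, Fth1, Ftl1, Mt1 and Mt2, with circles for Tfam cKO, squares for WT and bars for Cufflinks' 95% interval, which covers counting error only. Hmox1 is high in Tfam cKO 1 alone, Mt2 is highest in Tfam cKO 2 and lowest in Tfam cKO 1, and in the other 4 genes the Tfam cKO points lie above the WT points.

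Ferritin stores the iron that would otherwise turn peroxide into hydroxyl radicals, and its subunit genes ranked 1 and 3 among the members by mean FPKM. Fth1, the heavy subunit with ferroxidase activity, stood at 2378 and 1977 FPKM in Tfam cKO 1 and 2, against 1744 and 1703 FPKM in WT 1 and 2 (log2 fold change 0.33, SE 0.24, limma adjusted p = 0.899). Ftl1, the light subunit, stood at 1724 and 1472 FPKM in Tfam cKO, against 1179 and 1293 FPKM in WT (log2 fold change 0.37, SE 0.23, limma adjusted p = 0.884). Both genes had separate groups, also after rescaling to equal totals, and both were highest in Tfam cKO 1, as Hmox1 was. Their ratio, Fth1 over Ftl1, was 1.38 and 1.34 in Tfam cKO and 1.48 and 1.32 in WT. For library number 1 the log2 difference was 0.45 in Fth1 and 0.55 in Ftl1, and for number 2 it was 0.22 in Fth1 and 0.19 in Ftl1. Without Tfam cKO 1 the fold change of Fth1 was 0.20. Ferritin genes have many processed copies in the mouse genome, so how reads of those copies were assigned could change these levels. The width of Cufflinks' interval for Fth1 corresponds to 2051 to 2170 fragments, against 11125 to 21502 for Ftl1, although Fth1 had the higher level.

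Ferritin is also controlled at translation, through an iron-responsive element in the leader of both mRNAs, which FPKM does not report. The element is shown because it is the shared control site of the pair, with the letters CAGTG of its loop in capitals, from the coding transcript that GENCODE M21 numbers first for each gene. The windows are bases 87 to 115 of the Fth1 transcript and bases 78 to 106 of the Ftl1 transcript.
Fth1 (chromosome 19): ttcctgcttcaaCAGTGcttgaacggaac
Ftl1 (chromosome 7): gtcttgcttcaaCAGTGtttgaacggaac
The windows were identical at 26 of 29 bases. The looser pattern, a C followed by 5 bases of any kind and CAGTG, was found on the transcribed strand in the first 200 bases of 8.10% of coding transcripts, so the letters alone do not mark the element.

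Metallothioneins, small cysteine-rich proteins that bind zinc and copper and quench radicals, did not follow genotype as a pair. Mt1 stood at 968 and 1287 FPKM in Tfam cKO 1 and 2, against 939 and 900 FPKM in WT 1 and 2 (log2 fold change 0.28, SE 0.24, limma adjusted p = 0.921). Mt2 stood at 1024 and 2232 FPKM in Tfam cKO, against 1504 and 1291 FPKM in WT (log2 fold change 0.12, SE 0.36, limma adjusted p = 0.986). The Tfam cKO libraries were the lowest and the highest of the 4 for Mt2, with a log2 difference of −0.55 for number 1 and 0.79 for number 2. Without Tfam cKO 2 the fold change was −0.44 for Mt2 and 0.075 for Mt1. Of the 16 keratinocyte markers, 3 had the same lowest and highest library as Mt2, namely Krt10, Krt77 and Krtdap, which were picked out after their values were seen. The share of all tested genes with that lowest and highest library was not counted. Over the 16 markers, 4 were lowest in Tfam cKO 1, 25%, beside 18.7% of all tested genes. More of them, 9, were lowest in WT 2, beside 46.0% of all tested genes. Krt10 stood at 232 and 671 FPKM in Tfam cKO, against 361 and 547 FPKM in WT, and Krtdap at 49.8 and 268 FPKM in Tfam cKO, against 94.8 and 159 FPKM in WT. The other markers of differentiation differed from this order, with Krt1 highest in WT 1 and Lor lowest in WT 1. The part of such cells in the metallothionein values was not tested.

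The 250 bases before the Mt2 start (chr8:94172368-94172617, GRCm38.p6, plus strand) are shown because they hold both kinds of site through which this gene is known to respond, metal response elements (MREs) and an ARE. Capitals mark the MRE cores TGCACNC and TGCGCNC and the ARE core TGACNNNGC, on either strand.
Mt2: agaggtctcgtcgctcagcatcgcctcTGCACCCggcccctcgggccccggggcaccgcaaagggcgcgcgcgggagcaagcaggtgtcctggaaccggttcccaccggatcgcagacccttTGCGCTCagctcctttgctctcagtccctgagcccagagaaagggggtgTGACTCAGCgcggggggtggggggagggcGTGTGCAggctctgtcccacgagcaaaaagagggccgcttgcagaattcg
From left to right the cores began 223, 128, 79 and 50 bases before the start, of which the one at 79 is the ARE core. Of all 32851 promoter windows of 300 bases, 12.6% held TGCACNC, 15.4% TGCGCNC and 12.4% TGACNNNGC.

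The cytosolic thioredoxin system overlapped between the groups. Txn1, cytosolic thioredoxin, stood at 69.0 and 89.6 FPKM in Tfam cKO 1 and 2, against 75.4 and 78.4 FPKM in WT 1 and 2 (log2 fold change 0.03, 95% interval −0.41 to 0.48). Txnrd1, the cytosolic reductase that recharges it with NADPH, stood at 46.1 and 39.4 FPKM in Tfam cKO, against 38.4 and 44.3 FPKM in WT (log2 fold change 0.05, 95% interval −0.37 to 0.46). For Txn1 the Tfam cKO values fell on either side of both WT values, and for Txnrd1 on either side of WT 2 only. Srxn1, sulfiredoxin, which repairs overoxidized peroxiredoxins, stood at 12.2 and 8.96 FPKM in Tfam cKO, against 9.35 and 7.50 FPKM in WT (log2 fold change 0.29, limma adjusted p = 0.896). Without Tfam cKO 1 its fold change was 0.086, and without WT 2 it was 0.15.

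Peroxiredoxins are thiol peroxidases that thioredoxin recharges. Prdx1, cytosolic and abundant, stood at 119 and 116 FPKM in Tfam cKO, against 129 and 94.6 FPKM in WT (log2 fold change 0.09, 95% interval −0.38 to 0.57). Prdx2, also cytosolic, stood at 78.5 and 73.4 FPKM in Tfam cKO, against 77.9 and 65.0 FPKM in WT (log2 fold change 0.09, 95% interval −0.33 to 0.51). In both genes WT 1 lay near or above the Tfam cKO values and WT 2 below them. Prdx6, a cytosolic peroxidase that works with glutathione, had separate groups, at 54.3 and 45.8 FPKM in Tfam cKO, against 44.6 and 43.3 FPKM in WT (log2 fold change 0.18, limma adjusted p = 0.931). These groups overlapped after rescaling to equal totals, and without Tfam cKO 1 the fold change was 0.059. Prdx5, which is found in mitochondria, peroxisomes and cytosol, stood at 100.3 and 115 FPKM in Tfam cKO and 103 and 103 FPKM in WT. Prdx4, the peroxiredoxin of the endoplasmic reticulum and an X-linked gene, was the only tested member with separate groups lower in Tfam cKO. It stood at 11.0 and 10.4 FPKM in Tfam cKO, against 11.6 and 11.998 FPKM in WT (log2 fold change −0.13, limma adjusted p = 0.955).

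Among the glutathione peroxidases, Gpx1 ranked 5 by mean FPKM, at 194 and 195 FPKM in Tfam cKO, against 199 and 163 FPKM in WT (log2 fold change 0.11, limma adjusted p = 0.966). Gpx4, which reduces lipid peroxides in membranes and restrains ferroptosis, stood at 47.5 and 38.9 FPKM in Tfam cKO, against 38.2 and 40.3 FPKM in WT (log2 fold change 0.13, limma adjusted p = 0.96). The groups overlapped for both. Gpx3, the secreted form, stood at 0.196 and 0.522 FPKM in Tfam cKO and 0.693 and 0.463 FPKM in WT, which corresponds to at most 12 fragments in a library. Cat, peroxisomal catalase, had separate groups at 18.7 and 20.7 FPKM in Tfam cKO, against 16.7 and 14.6 FPKM in WT (log2 fold change 0.31, SE 0.17, limma adjusted p = 0.865), and they stayed separate after rescaling.

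The mitochondrial enzymes were set against the cytosolic ones because Tfam acts in mitochondria. Sod2, the manganese superoxide dismutase of the matrix, stood at 11.2 and 10.5 FPKM in Tfam cKO 1 and 2, against 9.87 and 8.65 FPKM in WT 1 and 2 (log2 fold change 0.21, SE 0.16, limma adjusted p = 0.91). Txn2, mitochondrial thioredoxin, stood at 55.6 and 47.5 FPKM in Tfam cKO, against 45.2 and 39.0 FPKM in WT (log2 fold change 0.28, SE 0.18, limma adjusted p = 0.889). For both genes the Tfam cKO libraries lay above the WT libraries. By library number, which is not known to pair the libraries, the difference was 0.17 and 0.25 for Sod2 and 0.29 and 0.28 for Txn2. Without WT 2 the fold change was 0.13 for Sod2 and 0.18 for Txn2, and without Tfam cKO 1 it was 0.17 for both. Prdx3, the mitochondrial peroxiredoxin, stood at 11.8 and 12.9 FPKM in Tfam cKO, against 9.23 and 12.6 FPKM in WT (log2 fold change 0.18, SE 0.19, limma adjusted p = 0.934). Txnrd2, the mitochondrial thioredoxin reductase, stood at 2.66 and 3.25 FPKM in Tfam cKO, against 2.53 and 3.72 FPKM in WT (log2 fold change −0.05, SE 0.21, limma adjusted p = 0.99). The groups overlapped for Prdx3 and Txnrd2.

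The 16 genes taken as cytosolic were Sod1, Prdx1, Prdx2, Prdx6, Txn1, Txnrd1, Srxn1, Gclc, Gclm, Gss, Gstm1, Gsto1, Gstp1, Nqo1, Blvrb and Gpx1. Members assigned to several or other places, such as Gsr and Gpx4, were in neither set. As a median, the log2 fold change was 0.20 over the 4 mitochondrial enzymes and 0.11 over the 16 cytosolic ones, a difference of 0.09. With means in place of medians the difference was −0.021, and without WT 1 it was −0.095, so its sign was not stable. After rescaling to equal totals the medians were 0.09 and −0.01. In the mean of log2(FPKM + 1), the mitochondrial set lay 1.28 and 1.19 below the cytosolic set in Tfam cKO 1 and 2, and 1.35 and 1.08 below it in WT 1 and 2. The WT values lay outside the Tfam cKO values on both sides, so the offset between the compartments did not differ beyond the spread between libraries.

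Matched enzymes were compared within each library by their FPKM ratio. Sod1, the cytosolic copper-zinc dismutase, stood at 181 and 180 FPKM in Tfam cKO, against 174 and 171 FPKM in WT (log2 fold change 0.06, 95% interval −0.35 to 0.48). Sod2 was 6.20% and 5.85% of Sod1 in Tfam cKO 1 and 2, against 5.67% and 5.07% in WT 1 and 2, and these groups did not overlap. Prdx3 was 9.92% and 11.1% of Prdx1 in Tfam cKO, against 7.15% and 13.3% in WT. Txn2 was 80.5% and 53.0% of Txn1 in Tfam cKO, against 59.999% and 49.8% in WT. Txnrd2 was 5.77% and 8.25% of Txnrd1 in Tfam cKO, against 6.59% and 8.39% in WT. The groups overlapped for the last 3 ratios. In all 4 libraries the cytosolic enzyme was the more abundant of each pair, by the least for the thioredoxins.

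**Figure D4:**
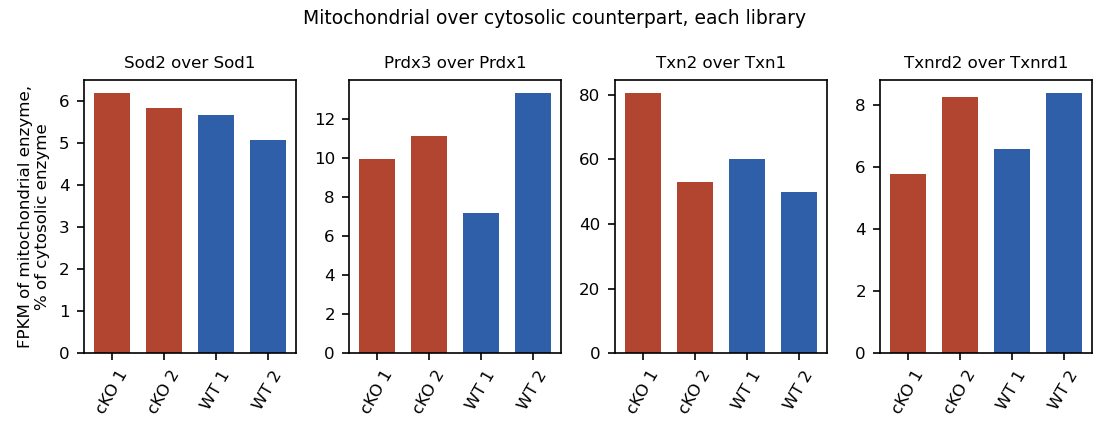
FPKM of each mitochondrial enzyme as a percentage of its cytosolic counterpart in each library, with Tfam cKO bars left of WT bars and a separate axis from 0 for each pair. The Sod2 over Sod1 bars of Tfam cKO, 6.20% and 5.85%, are above those of WT, 5.67% and 5.07%, and the groups overlap in the other 3 panels.

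Other genes of the pathway were read from lists of 172 symbols beside the members, of which 163 were in the tables and 139 were tested. None passed the threshold in either direction, and at an unadjusted p below 0.05 there were 7 higher and 1 lower, beside 5.01% and 1.19% of all tested genes. As deposited the groups were separate higher in Tfam cKO for 35 of the 139, 25.2%, and lower for 11, 7.91%, beside 25.4% and 9.75% of all tested genes. After rescaling to equal totals this order turned, with 20 higher and 26 lower, beside 14.3% and 19.8% of all tested genes. The median log2 fold change of the 139 was 0.10 as deposited and −0.0073 after rescaling. The genes shown from each list below were picked for separate groups and the lowest unadjusted p, so they are not typical of their list.

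Among the 12 tested genes of NRF2 regulation the groups were separate for 5 higher, 41.7%, and 1 lower, and after rescaling for 3 higher and 2 lower. For both lists of this paragraph, the shares of all tested genes were 25.4% and 9.75% as deposited, and 14.3% and 19.8% after rescaling. Bach1, a repressor that competes with NRF2 for the same sites, stood at 25.7 and 23.7 FPKM in Tfam cKO, against 17.6 and 16.96 FPKM in WT (log2 fold change 0.49, limma adjusted p = 0.662). Mafg, a small MAF partner of both BACH1 and NRF2, stood at 17.2 and 18.5 FPKM in Tfam cKO, against 13.1 and 13.5 FPKM in WT (log2 fold change 0.40, limma adjusted p = 0.775). Among 32 further NRF2 targets 7 were separate higher, 21.9%, and 2 lower, with 3 higher and 6 lower after rescaling. Trim16 stood at 26.5 and 25.6 FPKM in Tfam cKO, against 16.7 and 16.5 FPKM in WT (log2 fold change 0.62, limma adjusted p = 0.523). Abcc4, an efflux transporter, lay the other way, at 18.7 and 19.3 FPKM in Tfam cKO, against 24.7 and 29.1 FPKM in WT (log2 fold change −0.48, limma adjusted p = 0.685). Small spreads within groups in these 4 genes follow from how they were picked, and none passed the adjusted threshold.

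Heme and iron handling had 22 tested genes, 7 separate higher, 31.8%, and 2 lower, with 5 higher and 4 lower after rescaling. For both lists of this paragraph, the shares of all tested genes were again 25.4% and 9.75% as deposited, and 14.3% and 19.8% after rescaling. Flvcr1, a heme exporter, stood at 36.8 and 30.6 FPKM in Tfam cKO, against 22.8 and 21.8 FPKM in WT (log2 fold change 0.57, limma adjusted p = 0.624). Slc11a2, the iron transporter DMT1, stood at 9.90 and 10.6 FPKM in Tfam cKO, against 6.99 and 8.18 FPKM in WT. Of 33 tested genes of glutathione and thiol turnover 5 were separate higher, 15.2%, and 4 lower, with 3 higher and 8 lower after rescaling. Chac1, which degrades glutathione, stood at 17.2 and 7.43 FPKM in Tfam cKO, against 5.29 and 3.41 FPKM in WT (log2 fold change 1.23, limma adjusted p = 0.549), with a wide spread between the Tfam cKO libraries. Msrb1, a methionine sulfoxide reductase, stood at 31.5 and 29.3 FPKM in Tfam cKO, against 25.7 and 23.1 FPKM in WT.

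The metal response list had 12 tested genes, 6 separate higher, 50%, and 0 lower, with 5 higher and 1 lower after rescaling. For each list of this paragraph, the shares of all tested genes were 25.4% and 9.75% as deposited, and 14.3% and 19.8% after rescaling. Mtf1, the factor that binds MREs, stood at 3.28 and 2.99 FPKM in Tfam cKO, against 2.53 and 2.23 FPKM in WT. Slc30a1, a zinc exporter, stood at 8.91 and 7.603 FPKM in Tfam cKO, against 7.17 and 5.55 FPKM in WT. Of 18 tested genes of mitochondrial NADPH and peroxide handling, 3 were separate in each direction as deposited, with 1 higher and 4 lower after rescaling. Nnt, the proton-driven transhydrogenase that supplies mitochondrial NADPH, stood at 3.22 and 3.35 FPKM in Tfam cKO, against 3.97 and 4.24 FPKM in WT, and Glrx5, a mitochondrial glutaredoxin, at 33.2 and 26.5 FPKM in Tfam cKO, against 24.5 and 24.0 FPKM in WT. In the selenoprotein list, with 16 tested genes, 3 were separate higher, 18.8%, and 0 lower, with 0 higher and 2 lower after rescaling. Selenow, a small selenoprotein, stood at 186 and 143 FPKM in Tfam cKO, against 141 and 112 FPKM in WT. Sephs2, which makes the selenium donor, stood at 7.397 and 8.52 FPKM in Tfam cKO, against 5.21 and 7.20 FPKM in WT. The limma adjusted p was 0.862 or higher for every gene of the metal, mitochondrial NADPH and selenoprotein lists.

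**Figure D5:**
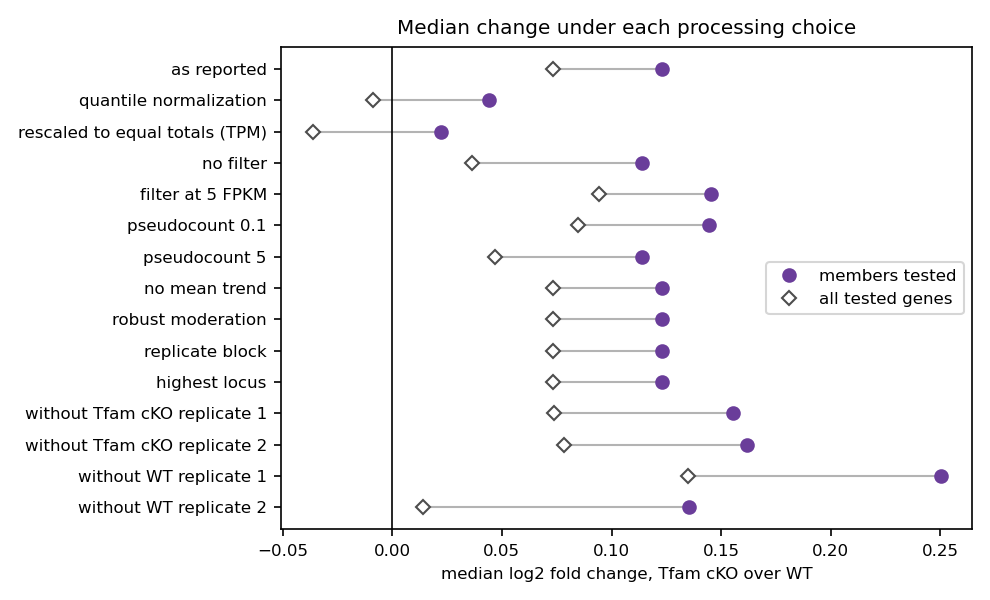
Median log2 fold change of the members (filled circles) and of all tested genes (open diamonds), Tfam cKO over WT, as reported and under each processing choice. The members lie to the right of all genes in every row, with medians of 0.12 and 0.07 as reported and 0.02 and −0.04 after rescaling to equal totals. Rows that change only the variance model or the pairing repeat the reported medians by construction. The choice of locus could not move the members' median either, so these rows are no separate check.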

How the data were processed

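Sorted Langerhans cells gave 2 libraries per genotype, prepared with the NEBNext Ultra kit, per the labels' protocols. The deposited values are FPKM with their 95% intervals, which the authors made with Cufflinks, per the file headers. The submitters' processing notes also name CASAVA and mm10, without versions. The aligner, annotation and strand setting were not given in the sources used here. Positions in the tables overlapped the RefSeq gene of GRCm38 for only 4 of the 36 members, so coordinates are RefSeq's alone.

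Loci of one symbol were summed. Symbols averaging at least 1 FPKM were compared as log2(FPKM + 1), Tfam cKO against WT. This scale understates the change of low genes. The fit used limma 3.58.1 (R 4.3.3) with a mean trend and without a pairing term. It was checked on simulated data with independent noise and changes larger than any member's, which does not cover changes of the sizes reported here. Total depth is unknown. Fragment numbers are the squared ratio of a value to its standard error, taken as 0.5 of Cufflinks' half-interval, and cover counting error only.

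Values per library were given by rule for the mitochondrial enzymes and their counterparts, members with separate groups and an unadjusted p below 0.05, and the 5 of highest mean. From each further list, up to 2 genes were shown, those with separate groups and the lowest unadjusted p. The other members' values were added after they were seen. Members and lists were chosen with earlier results of these data known. Processing alternatives changed the scaling (quantiles or equal totals), the filter (none or 5 FPKM), the pseudocount (0.1 or 5), the variance model, the pairing, the locus used or 1 library.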

Additional observations from a re-analysis of the deposited data

How the results depend on the processing

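No member passed the threshold of limma under any alternative other than the replicate block, where 1 did: Gsto1, at an adjusted p of 0.0263 with the same log2 fold change of 0.70. With that block 145 of all tested genes were higher and 39 lower in Tfam cKO. Outside the members, 5 genes of the pathway, cell marker and stress lists were higher. That count does not separate pathway genes from markers. The labels give the libraries of a pair only the same number. The difference of library 1 minus library 2 in Tfam cKO correlated with that in WT at r = 0.255 across the 10910 genes, which are not independent replicates, and 2 pairs are too few to establish a pairing. The count of all genes higher was 0 with no filter, 1 with a filter at 5 FPKM and 1 with a pseudocount of 5. The count lower was 1 without the mean trend and 2 with robust moderation. With 1 library left out the counts were 12 to 63 genes higher and 3 to 40 lower, and in the further lists 1 to 4 higher and 0 to 5 lower, with the lone library assumed to vary like the pair. The difference between mitochondrial and cytosolic enzymes ran from −0.095 to 0.0903 in those fits.

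Of the 34 members, 16 kept their sign in every fit. Rescaling to equal totals gave negative log2 fold changes for Blvrb (−0.12), Gclc (−0.00026), Gsr (−0.0017), Txn1 (−0.091), Txnrd1 (−0.075), Prdx1 (−0.030), Prdx2 (−0.031), Prdx5 (−0.065), Gpx1 (−0.012), Sod1 (−0.058), Gstp1 (−0.085), Mgst1 (−0.059), Mgst3 (−0.067) and Mt2 (−0.0062). Quantile normalization did so for Blvrb (−0.098), Txn1 (−0.063), Txnrd1 (−0.069), Prdx1 (−0.0058), Prdx2 (−0.022), Prdx5 (−0.053), Gpx1 (−0.028), Sod1 (−0.083), Gstp1 (−0.063), Mgst1 (−0.010) and Mgst3 (−0.038). A pseudocount of 5 did so for Mgst1 (−0.014). With 1 library left out, 16 members took both signs. The ranges were −0.077 to 0.285 for Nqo1, −0.062 to 0.278 for Gclc, −0.063 to 0.282 for Gsr, −0.154 to 0.218 for Txn1, −0.064 to 0.157 for Txnrd1 and −0.259 to 0.161 for Txnrd2. They were −0.129 to 0.315 for Prdx1, −0.037 to 0.22 for Prdx2, −0.023 to 0.385 for Prdx3, −0.041 to 0.157 for Prdx5, −0.035 to 0.257 for Gpx1 and −0.012 to 0.27 for Gpx4. They were −0.042 to 0.117 for Gstp1, −0.427 to 0.432 for Mgst1, −0.060 to 0.17 for Mgst3 and −0.444 to 0.679 for Mt2. The cause of these changes was not tested.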
